A study of Homo sapiens with 11 samples.

Results

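Very abundant transcripts with a short coding sequence made up 846 of the 66016 features with a count in this study, or 1.28%. A feature is a transcript row of the deposited tables, or a set of rows with identical counts in all 11 libraries merged to 1. The members have a listed length of 31 to 400, read here as the length of the coding sequence, and a mean RNA level of at least 100 CPM (counts per 1000000 counts of the library) over the 6 RNA libraries. Their RNA level therefore chose them, and it is given as a description with no test. Calls of a change in their RNA use the same libraries, so they are a description too. They came from 1062 rows and lay in 315 stretches of 20 consecutive lines of the table, where neighbouring lines are often versions of 1 gene. Members that share a stretch may share reads, so they are not independent and exceed the genes behind them in number. The files do not pair the transcript identifiers with gene names, so no gene is named here, and neither the targeted gene nor markers of the cell line were looked up. Genome positions and sequences of the members were not analysed here.

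The libraries came from HEK293T cells, a line derived from human embryonic kidney, either with CSAM knocked out or wild type. CSAM, whose current symbol is PCIF1, is an enzyme that methylates the N6 position of adenosine where that base follows the cap of a message. Groups were knockout 1 (label CSAM-KO#1) with 2 RNA and 2 footprint libraries, knockout 2 (label CSAM-KO#2) with 2 RNA and 2 footprint libraries, and wild-type HEK293T with 2 RNA libraries and 1 footprint library. The labels do not say whether a knockout is 1 clone or whether a pair of replicates is 2 cultures, and p-values therefore reflect a spread between libraries that could be technical only. Each footprint and efficiency change rests on the lone wild-type footprint library, whose spread was taken to equal that of the knockout pairs, and both knockouts were set against the same wild-type libraries.

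Ribosome profiling sequences the stretches of messenger RNA that ribosomes cover, and footprints divided by RNA of the same transcript give its translational efficiency. In growing human cells the most abundant short messages are known to include those of ribosomal proteins, subunits of the respiratory chain and other small housekeeping proteins. Which members belong to these families was not analysed here. An N6-methylated adenosine beside the cap is a common mark of messages that start with adenosine.

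After merging, the footprint libraries summed to 8387752 to 17437453 counts and the RNA libraries to 40346318 to 63551193. Members were deeply counted, with a median of 2373 footprint counts a library, against 158 in rows of the same length at 10 to under 100 CPM and 24 in those at 1 to under 10 CPM. All 846 members passed the filter of at least 10 counts in at least 2 libraries in both assays. In these bulk libraries, fewer cells with a transcript and less of it per cell cannot be told apart.

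The members covered a wide range of levels at short lengths. Their listed lengths ran from 34 to 400 with a median of 165 and quartiles of 119 and 239. Mean RNA levels had a median of 241 CPM and reached 3207 CPM, and mean footprint levels had a median of 241 CPM and ran from 10.8 to 2769 CPM. Per 100 units of listed length, the median RNA level was 168 CPM in members, 21.7 CPM in the 494 longer features at 100 CPM or more, and 10.5 and 2.17 CPM in the 8470 and 19209 less abundant rows of the same length. Of the 315 stretches, 39 held 50% of the members' RNA and the top 10 held 22.6%. Rows of a stretch may share reads, so these sums also depend on how many members a stretch holds. The 3 features nearest above the threshold had 100.1, 100.1 and 100.3 CPM of RNA, and the 3 nearest below had 99.9, 99.9 and 99.9 CPM. Their changes in translational efficiency were -0.66, -0.20 and -0.39 log2 above the threshold and -0.68, -0.16 and -0.27 log2 below it in knockout 1, and -1.08, -0.34 and -0.33 above it and -0.83, -0.33 and -0.23 below it in knockout 2.

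The members took about the same share of RNA and of footprints in wild-type cells, and a smaller share of footprints than of RNA in both knockouts. They held 30.5% and 29.97% of RNA counts in knockout 1, 32.3% and 31.9% in knockout 2, and 28.8% and 29.3% in wild-type cells. The knockout 2 libraries were highest and the wild-type libraries lowest, with no overlap between the 3 genotypes. Without a group of 38 members described below, knockout 1 (28.46% and 28.50%) and wild type (28.13% and 28.48%) overlapped in RNA. The same RNA libraries chose the members, so their RNA shares are a description. Group means were 30.3 ± 0.41% in knockout 1, 32.1 ± 0.25% in knockout 2 and 29.0 ± 0.30% in wild-type cells (SD, n = 2 each). Of footprint counts, the members held 26.7% and 26.8% in knockout 1, 26.3% and 25.9% in knockout 2, and 28.4% in the wild-type library. All 4 knockout footprint libraries were below the single wild-type one. The order of the genotypes was the reverse of that in RNA. The order of the knockouts in footprints turned without the same 38 members, when knockout 1 held 24.2% and 24.4%, knockout 2 held 24.9% and 24.7%, and wild-type cells held 27.2%. The exact binomial 95% interval of the wild-type footprint share was 28.35% to 28.41%, which covers counting error only. A lower footprint share was not particular to the members. Rows of the same length at 10 to under 100 CPM held 23.7% to 24.2% in the knockouts against 24.7% in wild type. Longer features at 100 CPM or more held 13.8% to 14.4% against 15.0%. Same-length rows at 1 to under 10 CPM and longer features at 1 to under 100 CPM held more in every knockout library than in wild type.

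**Figure D1:**
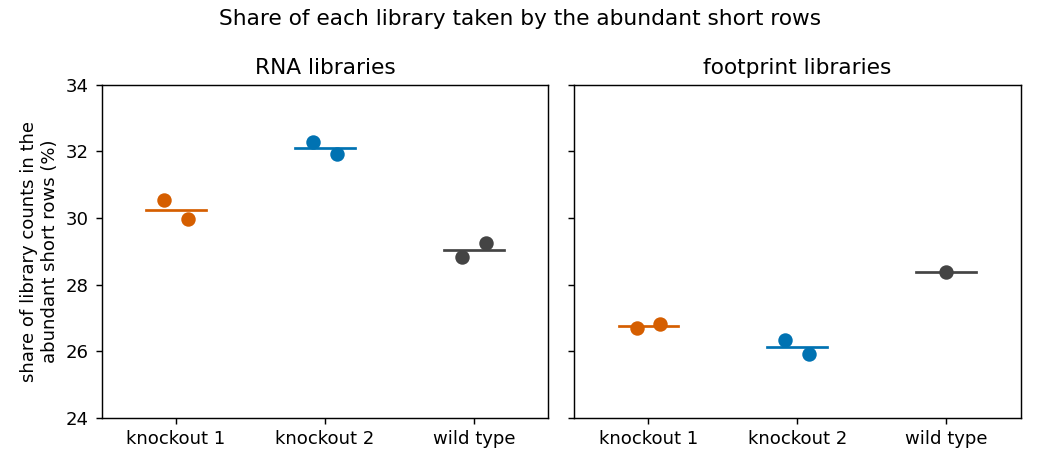
Share of library counts held by the 846 members, in percent, in each RNA and footprint library of knockout 1, knockout 2 and wild type; each point is 1 library and each short line the mean of a group. In RNA the knockout shares of 29.97% to 32.3% lie above the wild-type shares of 28.8% and 29.3%, and in footprints the knockout shares of 25.9% to 26.8% lie below the wild-type share of 28.4%. Without the 38 members whose RNA was more than 2-fold higher in knockout 1, the RNA shares of knockout 1 and wild type overlapped.

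Dividing the footprint share by the mean RNA share of the same genotype gave 0.882 and 0.886 in knockout 1, 0.820 and 0.807 in knockout 2, and 0.977 in wild-type cells. Transcript by transcript, wild type was again above both knockouts, while the knockouts overlapped. The median ratio of footprint CPM to RNA CPM over the members was 0.843 and 0.850 in knockout 1, 0.857 and 0.840 in knockout 2, and 0.974 in wild-type cells. Rows of the same length at 10 to under 100 CPM moved less, with medians of 0.819 and 0.799 in knockout 1, 0.785 and 0.799 in knockout 2, and 0.820 in wild-type cells. At 1 to under 10 CPM the medians were 0.777 and 0.773 in knockout 1, 0.732 and 0.758 in knockout 2, and 0.713 in wild-type cells, so here the wild-type library was lowest.

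Set against less abundant rows within 3 length classes (31 to 100, over 100 to 200 and over 200 to 400, weighted by the number of members in each), the members had the higher ratio in every footprint library, by a margin that was wider in the wild-type one. Over rows at 10 to under 100 CPM the margin was 0.04 and 0.07 log2 in knockout 1, 0.09 and 0.03 in knockout 2, and 0.22 in wild-type cells. Over rows at 1 to under 10 CPM it was 0.08 and 0.10 log2 in knockout 1, 0.17 and 0.09 in knockout 2, and 0.42 in wild-type cells. The ratio contains the RNA level that chose the members, so these margins are a description.

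**Figure D2:**
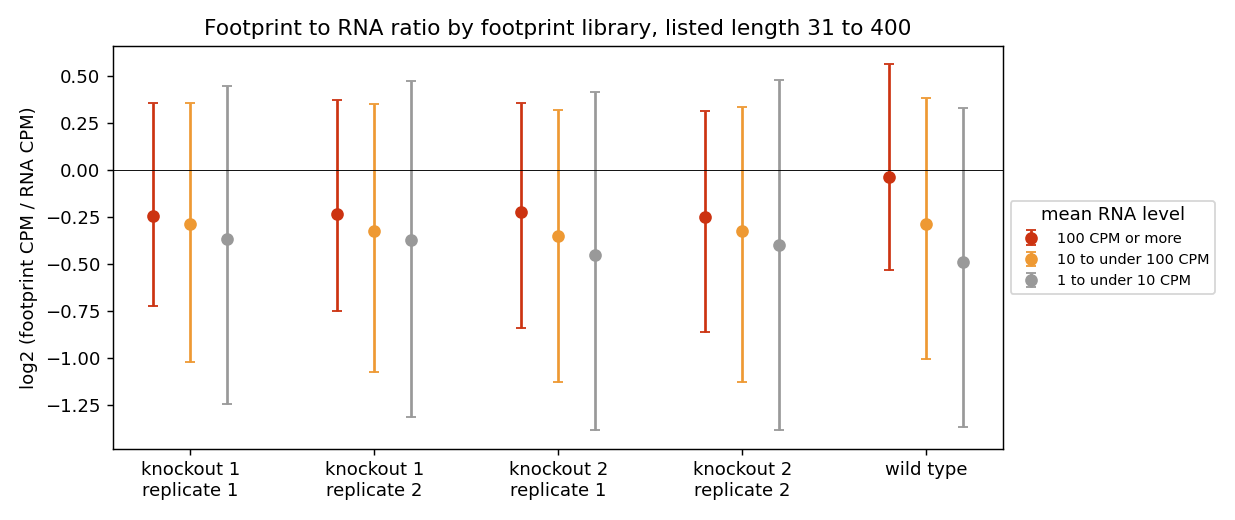
Log2 ratio of footprint CPM to mean RNA CPM of the same genotype, by footprint library, for features of listed length 31 to 400 in 3 classes of mean RNA level; points are medians over features and bars run from the lower to the upper quartile. The members (100 CPM or more) stand highest in the wild-type library, with a median ratio of 0.974, against 0.840 to 0.857 in the 4 knockout libraries.

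Members differed widely from each other in this ratio. The ratio of mean footprint to mean RNA level had quartiles of 0.600, 0.887 and 1.32 and ran from 0.0844 to 11.4, with 504 members under 1 and 342 over 1. The median ratio was 0.943 in the 369 members at 100 to 200 CPM and 1.01 in the 221 at 200 to 400 CPM. It was 0.672 in the 174 at 400 to 800 CPM and lowest, 0.438, in the 82 above 800 CPM. The RNA level that set these classes is also the divisor of the ratio, so their order is a description. The stretch of the table with the most RNA was lines 117461 to 117478, with 11 members of length 98 to 308. These members may share reads, so the shares of the stretch also depend on their number. This stretch held 1.23% and 1.21% of RNA in knockout 1, 1.51% and 1.59% in knockout 2, and 1.22% and 1.22% in wild-type cells. Of footprints it held 0.271% and 0.254% in knockout 1, 0.248% and 0.227% in knockout 2, and 0.272% in wild-type cells. Its RNA share was higher in knockout 2 than in the other genotypes, while its footprint share was lowest there.

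The extremes of level and ratio were chosen by rule and are described by their values. The highest RNA level belonged to uc063poy.1 (length 135), with 3104 and 2856 CPM in knockout 1, 3591 and 3816 CPM in knockout 2, and 2741 and 3135 CPM in wild-type cells. Its footprints were 992 and 952 CPM in knockout 1, 1071 and 1098 CPM in knockout 2, and 1218 CPM in wild-type cells. Knockout 2 was highest in RNA and every knockout library was below wild type in footprints. Next in RNA, counting 1 member a stretch, was uc001txq.4 (length 308), which had 1763 and 1758 CPM of RNA in knockout 1, 2189 and 2393 CPM in knockout 2, and 1728 and 1792 CPM in wild-type cells. The highest ratio, 11.4, was that of uc003sot.5 (length 366), whose footprints were 2962 and 3003 CPM in knockout 1, 2324 and 2361 CPM in knockout 2, and 2573 CPM in wild-type cells. The next was uc003sxr.5 (length 344) at 4.82, and its footprints were lower in every knockout library, at 734 and 687 CPM in knockout 1 and 739 and 783 CPM in knockout 2, against 979 CPM in wild-type cells. The lowest ratios were 0.0844 for uc060qvr.1 (length 233) and 0.0912 for uc021wpz.2 (length 342). The first of these had only 10.8 CPM of footprints on average beside 129 CPM of RNA, and its footprints were 13.5 and 10.01 CPM in knockout 1, 8.66 and 7.45 CPM in knockout 2, and 14.6 CPM in wild-type cells.

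RNA of the members was changed little in knockout 1 and was more often higher in knockout 2. Changes here and below are log2 fold changes, knockout over wild type, tested with edgeR's quasi-likelihood test and called at a Benjamini-Hochberg adjusted p under 0.05 over all features tested. In knockout 1 the median change of the members was 0.06 log2, with 61 members higher and 3 lower. Of all 57719 features tested, 2.18% were higher and 2.08% lower, with a median of -0.00. In knockout 2 the median was 0.18 log2, with 281 members higher and 3 lower, beside 5.9% of all features higher and 6.4% lower. The mean level that chose the members includes the compared RNA libraries, so RNA calls of members here and below are a description. Within a single genotype, 10 members were under 100 CPM of RNA in knockout 1, 27 in knockout 2 and 36 in wild-type cells. The count in knockout 1 was 26 higher without wild-type replicate 1 and 36 without knockout 1 replicate 1. The count in knockout 2 was 137 without wild-type replicate 1, 168 without knockout 2 replicate 2 and 186 without knockout 1 replicate 2, which enters through the shared spread.

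The abundance classes were set by the mean over all 6 RNA libraries, the compared ones included, so the RNA change across them is a description only. The median RNA change in knockout 2 was 0.14, 0.17, 0.23 and 0.28 log2 from the 100 to 200 CPM class to the class above 800 CPM, while in knockout 1 it was 0.08, 0.08, 0.06 and -0.00. Against rows of the same length at 10 to under 100 CPM, the members' median RNA change differed by 0.01 log2 in knockout 1 and by 0.11 log2 in knockout 2. The 494 longer features at 100 CPM or more had median changes of -0.02 log2 in knockout 1 and -0.06 log2 in knockout 2. Longer features at 10 to under 100 CPM had -0.04 and -0.08 log2. CPM are shares of a library, so a change in members that hold 25.9% to 32.3% of the counts also shifts the CPM of other rows.

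The 3 members called lower in RNA in knockout 1 were named after their values were seen. Of these, uc001gki.2 (length 176) and uc001gkj.2 (length 219) changed by -0.41 and -0.39 log2 and share a stretch, and the third, of length 341, changed by -0.35 log2. In knockout 2 uc064yzb.1 (length 148) changed by -0.71 log2 and uc004dam.4 (length 262) by -0.67 log2, and the third, of length 179, by -0.42 log2. In knockout 1, 0 members were called lower without either knockout 1 replicate (edgeR; at an unadjusted p under 0.05, 34 members were lower with all libraries). The count there was 5 without either knockout 2 replicate, 6 without wild-type replicate 1 and 19 without wild-type replicate 2. In knockout 2 the count was 14 without knockout 2 replicate 1, 5 without knockout 2 replicate 2, and 13 and 16 without wild-type replicates 1 and 2.

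No member was lower in RNA in both knockouts by the naming rule. The leading pair among those higher in both was uc060haw.1 and uc058pjf.1. RNA of uc060haw.1 (length 192) was 174 and 170 CPM in knockout 1, 176 and 184 CPM in knockout 2, and 118 and 145 CPM in wild-type cells, with no overlap of the knockouts with wild type. Its change was 0.41 ± 0.09 log2 (SE) in knockout 1 (edgeR adjusted p = 0.0071) and 0.52 ± 0.09 in knockout 2 (edgeR adjusted p = 0.00028). RNA of uc058pjf.1 (length 120) was 157 and 159 CPM in knockout 1, 137 and 164 CPM in knockout 2, and 105 and 135 CPM in wild-type cells, where the nearest libraries differed by less than 3 CPM. Its change was 0.43 ± 0.11 log2 in knockout 1 (edgeR adjusted p = 0.020) and 0.40 ± 0.11 in knockout 2 (edgeR adjusted p = 0.013). The knockout 1 call of uc060haw.1 was lost without either knockout 1 replicate (edgeR adjusted p = 0.219 and 0.118) or wild-type replicate 1 (0.122). That of uc058pjf.1 was lost without the same 3 libraries (edgeR adjusted p = 0.213, 0.179 and 0.192), and its knockout 2 call without knockout 2 replicate 2 (0.188) or wild-type replicate 1 (0.182).

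Footprints of the members were far more often lower than higher in both knockouts. In knockout 1 the median change was -0.27 log2, with 47 members higher and 339 lower, beside 2.4% of 44410 features higher and 3.63% lower. In knockout 2 the median was -0.25 log2, with 35 higher and 364 lower, beside 7.13% higher and 8.66% lower. The all-feature medians were 0.02 and 0.01 log2. Against rows of the same length at 10 to under 100 CPM the members' median, weighted over the 3 length classes, differed by -0.13 log2 in knockout 1 and -0.07 log2 in knockout 2. Against rows at 1 to under 10 CPM it differed by -0.28 and -0.21 log2. In knockout 2 the difference from rows at 10 to under 100 CPM was uneven. At length 31 to 100 the medians were -0.27 log2 in members and -0.21 log2 in those rows. At over 100 to 200 they were nearly equal, at -0.24 and -0.23 log2, and at over 200 to 400 they were -0.24 and -0.09 log2. Members have more counts than the less abundant rows, so a change of a given size passes the test more readily in members. The medians rather than the counts therefore compare the classes. Without knockout 2 replicate 1 the higher count in knockout 2 was 14. With library sums in place of scaling factors, knockout 2 had 72 members higher and 300 lower, or 80.6% of calls lower against 91.2% with the factors.

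The pair of members with the clearest fall in footprints in both knockouts also led the fall in translational efficiency, and both have very short listed lengths. Footprints of uc057iia.1 (length 54) were 142 and 107 CPM in knockout 1, 123 and 126 CPM in knockout 2, and 216 CPM in wild-type cells, so all 4 knockout libraries were below. Its RNA was 140 and 130 CPM in knockout 1, 154 and 161 CPM in knockout 2, and 121 and 136 CPM in wild-type cells. The footprint change was -0.89 ± 0.11 log2 in knockout 1 (edgeR adjusted p = 2.6e-09) and -0.89 ± 0.11 in knockout 2 (edgeR adjusted p = 2.1e-09). Its translational efficiency changed by -0.98 ± 0.16 log2 in knockout 1 (edgeR adjusted p = 0.0015) and -1.24 ± 0.16 in knockout 2 (edgeR adjusted p = 2.4e-06).

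Footprints of uc064owg.1 (length 47) were 24.7 and 21.3 CPM in knockout 1, 24.7 and 20.3 CPM in knockout 2, and 39.5 CPM in wild-type cells, from 179 to 431 counts a library. Its RNA was 128 and 117 CPM in knockout 1, 121 and 121 CPM in knockout 2, and 104 and 98.9 CPM in wild-type cells, so RNA was higher and footprints lower in every knockout library. The footprint change was -0.87 ± 0.15 log2 in knockout 1 (edgeR adjusted p = 8.0e-06) and -0.88 ± 0.14 in knockout 2. Its translational efficiency changed by -1.17 ± 0.17 log2 in knockout 1 (edgeR adjusted p = 0.00025) and -1.20 ± 0.17 in knockout 2.

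Translational efficiency, tested as the footprint change minus the RNA change in 1 model of all 11 libraries, was lower in both knockouts across most members. In knockout 1 the median change was -0.33 log2, with 786 members below 0 and 60 above it, and 147 were called lower and 0 higher. Of all 44089 features tested, 1.01% were lower and 0.191% higher, with a median of 0.02 log2. At an unadjusted p under 0.05, 1 member was higher and 450 were lower, and DESeq2 and limma-voom also called 0 higher. In knockout 2 the median was -0.42 log2, with 770 members below 0, 384 called lower and 4 higher, beside 5.5% of all features lower and 2.64% higher. The count in knockout 1 depended on single libraries: it was 22 without RNA knockout 1 replicate 1, 29 without RNA knockout 1 replicate 2 and 25 without footprint knockout 1 replicate 2. The median stayed between -0.37 and -0.31 log2 when each of the replicates was left out in turn. With library sums in place of scaling factors the median of all features shifted by 0.12 log2 in knockout 1 and 0.16 log2 in knockout 2. Relative to that median the members stood at -0.36 log2 in knockout 1 and -0.44 log2 in knockout 2, and 37 and 245 members were called lower.

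The lower efficiency was seen at each length and was larger in members than in less abundant rows of that length. At length 31 to 100 the members' median was -0.41 log2 in knockout 1, against -0.37 log2 at 10 to under 100 CPM and -0.13 log2 at 1 to under 10 CPM. At over 100 to 200 these medians were -0.35, -0.22 and -0.02 log2, and at over 200 to 400 they were -0.30, -0.07 and 0.09 log2. In knockout 2 they were -0.49, -0.34 and -0.16 log2 at 31 to 100, -0.43, -0.32 and -0.11 log2 at over 100 to 200, and -0.38, -0.13 and 0.02 log2 at over 200 to 400. Within each level class the median was thus higher at greater length, and the gap between members and the middle class was widest in the longest of the 3 classes. The length-weighted difference from rows at 10 to under 100 CPM was -0.16 log2 in knockout 1 and -0.17 log2 in knockout 2, and that from rows at 1 to under 10 CPM was -0.34 and -0.35 log2. Longer features at 100 CPM or more had medians of -0.09 log2 in knockout 1 and 0.00 log2 in knockout 2, with 7 and 41 of 494 called lower. Longer features at 10 to under 100 CPM had medians of 0.10 log2 in knockout 1 and 0.16 log2 in knockout 2. At 1 to under 10 CPM these were 0.24 and 0.30 log2. A lower median in the most abundant class was thus also seen above length 400 and was not particular to short rows.

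**Figure D3:**
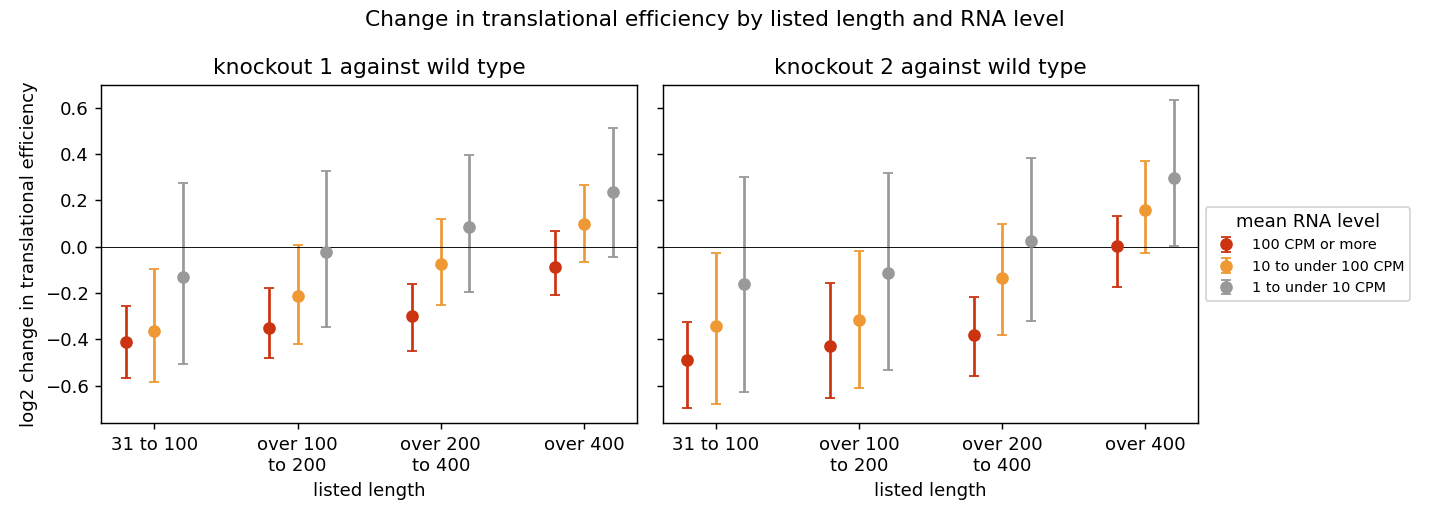
Log2 change in translational efficiency, knockout 1 (left) and knockout 2 (right) over wild type, by listed length in classes and by mean RNA level; points are medians over features and bars run from the lower to the upper quartile. In each class of listed length up to 400 the members (100 CPM or more) stand lowest, from -0.41 log2 at 31 to 100 to -0.30 log2 at over 200 to 400 in knockout 1 and from -0.49 to -0.38 log2 in knockout 2. The points over 400 are of longer features, which are not members.

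Lower efficiency was seen in most stretches of the table that held members. Of the 315 stretches with members, 295 had a median below 0 in knockout 1 and 290 in knockout 2. Of 8442 single rows of the same length at 10 to under 100 CPM, 5755 were below 0 in knockout 1 and 6000 in knockout 2. All stretches were set against the same wild-type footprint library, so they do not repeat the comparison. Members of 1 stretch changed alike, but they may share reads, so this likeness is a description. Over the 722 members in the 191 stretches with more than 1 member, the SD within stretches was 0.09 log2 in knockout 1. Among all 846 members it was 0.22 log2. In knockout 2 these values were 0.13 and 0.34 log2. Among the members, abundance ordered the change weakly. From the class at 100 to 200 CPM to the class above 800 CPM the medians were -0.36, -0.37, -0.29 and -0.23 log2 in knockout 1 and -0.41, -0.45, -0.40 and -0.49 log2 in knockout 2. In knockout 2 the members with the fewest footprints per RNA had the lowest median, -0.52 log2 below the lower quartile of the ratio, then -0.43, -0.38 and -0.32 log2 in the classes above it. In knockout 1 these classes had medians of -0.35, -0.34, -0.32 and -0.33 log2. The Spearman correlation of the ratio with the change over the 846 members was 0.23 in knockout 2 and -0.00 in knockout 1, where both measures share the footprint and RNA libraries.

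All 4 members called higher in efficiency in knockout 2 lay in 1 stretch, lines 162370 to 162375, and are neighbouring rows that may share reads. The largest changes among them, named after their values were seen, were those of uc002mnd.4 (length 311) at 0.72 ± 0.16 log2 (edgeR adjusted p = 0.0033) and uc060teb.1 (length 217) at 0.72 ± 0.16 log2 (edgeR adjusted p = 0.0041). Without RNA wild-type replicate 2 the count was 12.

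Efficiency in the knockouts was also compared directly. The median change, knockout 2 over knockout 1, was -0.06 log2 in members and -0.07 log2 in both less abundant classes of the same length. The median shift was thus not particular to the members. Of the members, 44 were called lower and 0 higher, beside 0.445% of all features lower and 0.059% higher. At an unadjusted p under 0.05, 193 were lower and 36 higher, DESeq2 called 1 higher and limma-voom 0. The count of 44 was 2 without footprint knockout 1 replicate 1, 9 without footprint knockout 2 replicate 2 and 9 without RNA knockout 1 replicate 1. It was 11 without RNA knockout 1 replicate 2, 14 without RNA knockout 2 replicate 2, 23 without footprint knockout 2 replicate 1 and 68 without RNA wild-type replicate 1.

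A group of 38 members stood apart in the RNA of knockout 1, with a level more than 2-fold that of wild-type cells. They were picked by that value after it was seen, so it is a description. The next member below that bound, of length 117, changed by 0.99 log2, and the one after it by 0.55 log2. They are short, at a listed length of 94 to 210 with a median of 117, and 37 of them lay in 2 places of the table, 12 at lines 9360 to 9388 and 25 at lines 56993 to 57220. In wild-type cells alone 5 of the 38 were under 100 CPM of RNA, as were 36 of all 846 members. Together the 38 held 2.09% and 1.47% of RNA in knockout 1, 0.810% and 0.606% in knockout 2, and 0.708% and 0.785% in wild-type cells. Both knockout 1 libraries were above the rest in RNA, and they differed from each other by more than the other pairs did. Of footprints they held 2.51% and 2.45% in knockout 1, 1.41% and 1.21% in knockout 2, and 1.15% in wild-type cells. Their median RNA change was 1.25 log2 in knockout 1 and -0.06 log2 in knockout 2, and their median footprint change was 0.96 and 0.09 log2.

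Only 4 of the 38 passed the test in RNA of knockout 1, a count from the values that picked them and so a description. Under 100 CPM of RNA were 5 of them in wild-type cells, 9 in knockout 2 and 0 in knockout 1. Most are near each other in the table and may share reads, so they are not independent. In footprints of knockout 1, 38 passed the test, beside 2.4% of all features higher and 3.63% lower. In footprints of knockout 2, 4 passed it, beside 7.13% higher and 8.66% lower. The 38 were picked by their RNA in knockout 1, so both footprint counts are a description. The 38 made up most of the 47 members called higher in footprints of knockout 1. The efficiency of none of them was called in knockout 1, and it contains the RNA change that picked them, so this is a description too. The other 808 members had medians of 0.05 log2 in RNA, -0.28 log2 in footprints and -0.33 log2 in efficiency in knockout 1, and of 0.19, -0.26 and -0.43 log2 in knockout 2. Without the 38, the members' share of RNA was 28.5% and 28.5% in knockout 1, 31.5% and 31.3% in knockout 2, and 28.1% and 28.5% in wild-type cells, so knockout 1 and wild type then overlapped. Their share of footprints was 24.2% and 24.4% in knockout 1, 24.9% and 24.7% in knockout 2, and 27.2% in wild-type cells.

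**Figure D4:**
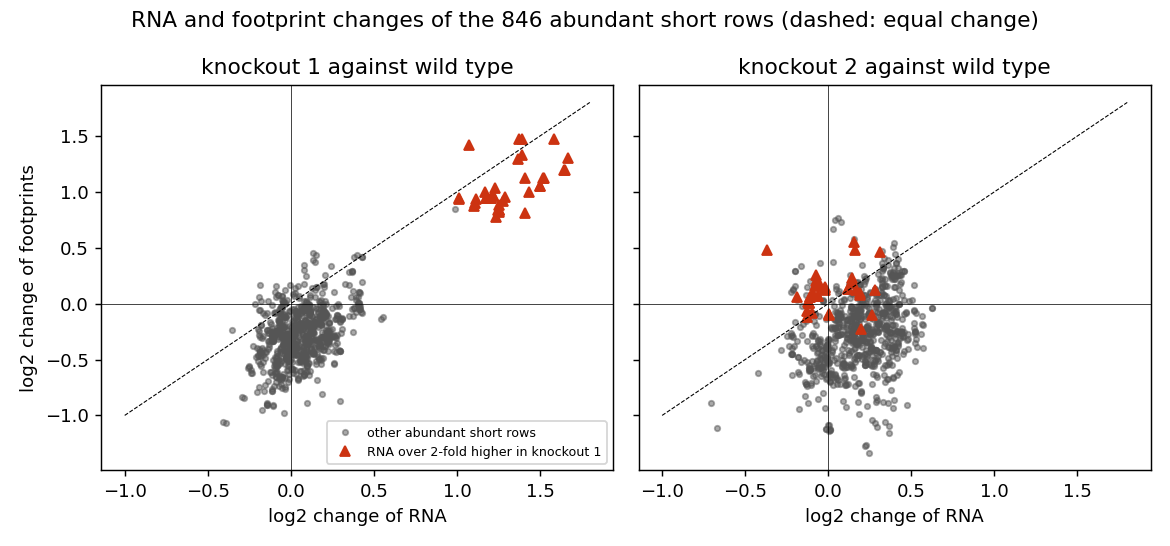
Log2 change of RNA (x axis) and of footprints (y axis), knockout 1 (left) and knockout 2 (right) over wild type; each point is 1 of the 846 members, and the line marks equal change in both. Most points lie under the line in both panels, and the 38 members with RNA more than 2-fold higher in knockout 1 form a group of their own in that panel, with medians of 1.25 log2 in RNA and 0.96 log2 in footprints.

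The pair of members with the largest rise of footprints in both knockouts belonged to these 38. Footprints of uc003ngq.5 (length 210) were 835 and 831 CPM in knockout 1, 451 and 415 CPM in knockout 2, and 291 CPM in wild-type cells, so the order was knockout 1, knockout 2, wild type with no overlap. The change was 1.42 ± 0.11 log2 in knockout 1 (edgeR adjusted p = 9.9e-19) and 0.48 ± 0.10 in knockout 2 (edgeR adjusted p = 0.00034). Its mean RNA level was under 100 CPM in knockout 2. Its RNA was 309 and 220 CPM in knockout 1, 104 and 83.6 CPM in knockout 2, and 144 and 112 CPM in wild-type cells. The RNA of knockout 2 was thus below that of wild type while its footprints were above, and neither RNA change passed the test.

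The second, uc003njn.2 (length 119), reached 100 CPM only through knockout 1, with mean RNA levels of 201.3 CPM in knockout 1, 83.5 CPM in knockout 2 and 79.1 CPM in wild-type cells. Its values are therefore a description. Its footprints were 164 and 149 CPM in knockout 1, 91.1 and 71.6 CPM in knockout 2, and 52.6 CPM in wild-type cells, in the same order. The change was 1.48 ± 0.13 log2 in knockout 1 and 0.55 ± 0.13 in knockout 2. The knockout 2 call was lost without footprint knockout 2 replicate 1 (edgeR adjusted p = 0.147) and in DESeq2 (adjusted p = 0.154). Its RNA was 249 and 154 CPM in knockout 1, 109 and 57.9 CPM in knockout 2, and 68.8 and 89.4 CPM in wild-type cells, where knockout 2 and wild type overlapped.

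**Figure D5:**
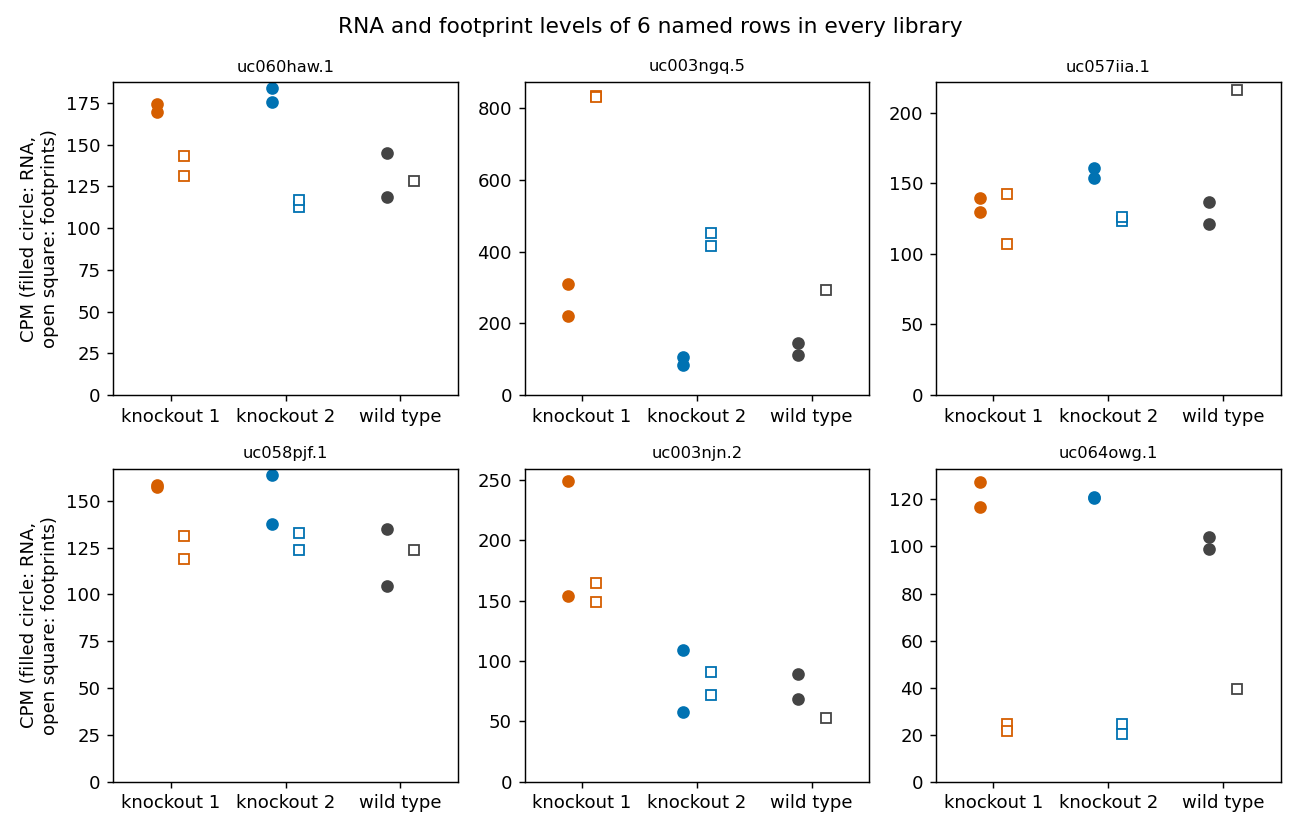
RNA (filled circles) and footprint (open squares) levels in CPM of the 6 members that led a change in both knockouts; each panel is 1 member and each point 1 library of knockout 1, knockout 2 or wild type. Footprints of uc057iia.1 and uc064owg.1 are lower in all 4 knockout libraries than in the wild-type one, and those of uc003njn.2 and uc003ngq.5 are higher.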

How the data were processed

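Each of the 11 libraries has 1 file from the authors with raw whole-number counts for the same 182398 transcript rows, beside an identifier and a listed length. Per the submitters' processing notes, TopHat2 2.0.9, Bowtie2 2.1.0 and CASAVA 1.8 were used with hg38, and the role of each is not recorded there. The counting program, its strand setting and its handling of shared reads are not given in the sources used here, so overlapping and antisense transcripts, paralogues and pseudogenes cannot be told apart. No source states the unit of that length, which was taken to be coding length because the 88482 rows without one held 0 counts in every library. Per the labels' protocols, footprints were made with RNase I, a linker and PCR, and RNA libraries with TruSeq.

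Rows with identical counts in all libraries were merged, which left 66016 features, and CPM was computed over merged rows. Features that reached 10 counts in 2 or more libraries of an assay were fitted with edgeR 4.0.16 (R 4.3.3; TMM factors within assay, robust quasi-likelihood). RNA was fitted over 6 libraries, footprints over 5 and efficiency over all 11 in 6 groups, with Benjamini-Hochberg adjustment over all features tested. The scripts were tested on simulated data. Alternatives were DESeq2 1.42.0, limma-voom 3.58.1, other scaling, filters, thresholds and merging, a replicate block and leaving out replicates. Shares have exact binomial intervals (Clopper-Pearson) that cover counting error only.

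Members and comparisons were chosen with earlier results of these data known. Named members were, by rule, the first 2 higher and the first 2 lower in both knockouts in each assay, ranked by the smaller change, and the 2 with the highest RNA level, the highest ratio and the lowest ratio, 1 for each 20 consecutive lines. Libraries of a pair were not duplicates, since their counts differed by 1.73 to 8.33 chi-square units a feature.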

Additional observations from a re-analysis of the deposited data

Results flagged for a closer look

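The direct test of knockout 2 against knockout 1 flagged the results below, in which 1 knockout differed from the other by that test. It compares the knockout lines with each other, and the cause of a difference was not tested. Values are log2 changes, knockout 2 over knockout 1, with SE, from edgeR's quasi-likelihood test. In translational efficiency the median was -0.06 log2 in members and -0.07 log2 in rows of the same length at 10 to under 100 CPM. Of the members, 44 were called lower in knockout 2, beside 0.445% of all features. That count was 2 without footprint knockout 1 replicate 1 and 68 without RNA wild-type replicate 1, so it depends on single libraries.

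Among the members that rose in footprints in both knockouts, uc003ngq.5 was lower in knockout 2 in RNA by -1.44 ± 0.24 (edgeR adjusted p = 0.035) and in footprints by -0.94 ± 0.08 (edgeR adjusted p = 3.5e-16). Footprints of uc003njn.2, a member only through its RNA level in knockout 1, differed by -0.93 ± 0.10. The most abundant members were higher in RNA in knockout 2, uc063poy.1 by 0.36 ± 0.09 (edgeR adjusted p = 0.0079) and uc001txq.4 by 0.43 ± 0.08 (edgeR adjusted p = 0.00078), and the efficiency of uc001txq.4 differed by -0.60 ± 0.12 (edgeR adjusted p = 0.010).

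The member with the highest ratio, uc003sot.5, differed by -0.36 ± 0.09 in RNA (edgeR adjusted p = 0.0079) and by -0.34 ± 0.08 in footprints (edgeR adjusted p = 0.00087). Of those with the lowest ratios, uc060qvr.1 differed by -0.53 ± 0.17 in footprints (edgeR adjusted p = 0.038). Footprints of uc021wpz.2 differed by -0.56 ± 0.12 (edgeR adjusted p = 0.00046) and its efficiency by -0.62 ± 0.15 (edgeR adjusted p = 0.046).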

How the results depend on the processing

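No alternative turned the direction of a result. Each main value was counted once for each planned setting that covers it. Of these pairs, 191 kept their direction and size and 106 moved. With replicates left out in turn, 111 such pairs kept them and 49 moved. The cause was not tested except where the setting changes the number of members.

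With 1 member for each 20 consecutive lines, RNA calls were 21 higher in knockout 1 and 93 in knockout 2, footprint calls 14 higher and 119 lower in knockout 1 and 11 higher and 134 lower in knockout 2, and efficiency calls 46 lower in knockout 1, 135 lower and 1 higher in knockout 2, and 12 lower for knockout 2 against knockout 1. Footprint medians were then -0.25 and -0.23 log2, and the efficiency median in knockout 2 was -0.39 log2. At a threshold of 50 CPM, RNA calls were 125 higher and 27 lower in knockout 1 and 429 higher and 40 lower in knockout 2, footprint calls 556 lower in knockout 1 and 71 higher and 691 lower in knockout 2, and efficiency calls 223 lower in knockout 1 and 649 lower and 11 higher in knockout 2. Medians were then 0.14 log2 for RNA in knockout 2, -0.23 and -0.23 log2 for footprints, and -0.30 and -0.36 log2 for efficiency, with a difference of -0.13 log2 from rows of 10 to under 100 CPM in knockout 2. At 200 CPM, RNA calls were 30 higher and 0 lower in knockout 1 and 0 lower in knockout 2, with medians of 0.036 and 0.22 log2. Footprint calls were 28 higher and 193 lower in knockout 1 and 15 higher and 189 lower in knockout 2, with a median of -0.22 log2 in knockout 2, and efficiency calls were 89 lower in knockout 1 and 239 lower and 0 higher in knockout 2.

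Library sums gave RNA calls of 6 lower in knockout 1 and 16 lower in knockout 2 with medians of 0.032 and 0.11 log2, footprint calls of 72 higher in knockout 2 with medians of -0.17 and -0.16 log2, and efficiency calls of 37 lower in knockout 1, 245 lower and 7 higher in knockout 2 and 1 higher for knockout 2 against knockout 1, with medians of -0.21 and -0.26 log2. Both DESeq2 and its size factors gave footprint medians of -0.28 and -0.26 log2, and DESeq2 called 16 higher in footprints of knockout 2 and 1 higher in efficiency for knockout 2 against knockout 1. limma-voom called 5 lower in RNA of knockout 1. Without a count filter there were 5 lower in RNA of knockout 1, a footprint median of -0.23 log2 in knockout 2 and 1 higher in efficiency for knockout 2 against knockout 1. A mean count of at least 50 gave medians of -0.25 log2 for footprints and -0.31 log2 for efficiency in knockout 1. Unmerged rows gave 5 lower in RNA of knockout 1, a footprint median of -0.22 log2 in knockout 2, 2 higher in efficiency of knockout 2, and differences of -0.12 and -0.12 log2 from rows of 10 to under 100 CPM.

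Shares of footprints in knockout 1, knockout 2 and wild type were 27.5%, 26.9% and 28.7% unmerged, 34.5%, 33.7% and 36.6% at 50 CPM, 20.6%, 20.2% and 21.7% at 200 CPM, and 28.1%, 27.3% and 29.3% with 1 feature for each 20 lines. Shares of RNA were 36.9%, 38.5% and 35.4% at 50 CPM, 25.0%, 26.9% and 24.1% at 200 CPM, and 32.7%, 34.6% and 31.4% with 1 feature for each 20 lines. Median log2 ratios, -0.24, -0.24 and -0.04 in the main analysis, were -0.17, -0.17 and -0.014 at 50 CPM, -0.37, -0.47 and -0.19 at 200 CPM, and -0.22, -0.21 and -0.048 with 1 feature for each 20 lines.

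Leaving out each replicate in turn gave 26 to 83 higher and 0 to 19 lower in RNA of knockout 1, 137 to 319 higher and 3 to 16 lower in RNA of knockout 2 with a median of 0.15 to 0.22 log2, and 14 to 44 higher in footprints of knockout 2 with a median of -0.28 to -0.22 log2. Efficiency calls were 22 to 210 lower in knockout 1 with a median of -0.37 to -0.31 log2 and a difference of -0.18 to -0.13 log2 from rows of 10 to under 100 CPM. In knockout 2 they were 4 to 12 higher with a median of -0.45 to -0.38 log2, and for knockout 2 against knockout 1 they were 2 to 68 lower and 0 to 3 higher. The lone wild-type footprint library was not left out.

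The replicate numbers share only a number, since the labels do not tie them to a culture or day. Deviations of same-numbered RNA libraries correlated at -0.15 for knockout 1 and wild type, 0.23 for knockout 2 and wild type and 0.10 for knockout 2 and knockout 1, and footprint libraries of the knockouts at -0.02, over 24236 features. With the replicate block, RNA calls were 87 higher and 5 lower in knockout 1 and 320 higher and 6 lower in knockout 2, footprint calls 45 higher and 283 lower in knockout 1 and 23 higher and 339 lower in knockout 2, and efficiency calls 163 lower in knockout 1, 388 lower and 5 higher in knockout 2, and 47 lower and 13 higher for knockout 2 against knockout 1.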
